A study of Vulpes vulpes with 8 samples.

Results

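Values are given here for genes of the REEP, reticulon and atlastin families, whose proteins shape the endoplasmic reticulum (ER), in the gums of foxes with and without an inherited gum overgrowth. The 8 genes REEP5, REEP3, REEP6, RTN3, RTN4, ATL2, ATL3 and ARL6IP1 were chosen by name around REEP5, whose lower signal in affected foxes was already known when the set was drawn up. The difference between affected and unaffected foxes therefore chose the set, and values of that contrast are given below as a description; how many passed a threshold is printed once beside the same for all probe sets, and nothing is read from it. In the platform annotation 7 of the 8 genes, of 15115 genes in all, had probe sets with a single symbol. They had 19 probe sets among the 42924 that are not array controls: 4 for REEP5, 4 for ARL6IP1, 3 for RTN3, 3 for ATL2, 2 for REEP3, 2 for RTN4 and 1 for ATL3. The probe sets of a gene are lettered in the order of their IDs (REEP5-A to REEP5-D), and the plots give each letter with its ID. REEP6 was not analysed here, and 3 probe sets that the annotation shares between ARL6IP1 and similar loci were left out. All 19 passed the filter on dim probe sets, which kept 25754 probe sets, and each read above the bacterial-control background of its array in every fox. That background was taken as the 95th percentile of 42 bacterial control probe sets and ran from 7.42 to 16.6.

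Messenger RNA was read in gum tissue of red foxes (Vulpes vulpes) with and without hereditary hyperplastic gingivitis (HHG), an inherited overgrowth of the gum that was diagnosed from early signs along the tooth margin. There were 5 affected foxes, numbered 19, 55 and 107 (males) and 381 and 757 (females), and 3 unaffected foxes, numbered 86 and 97 (males) and 402 (female), with 1 array per fox. The labels give no age, genotype or treatment, and they do not assign the time of collection, at pelting from euthanised animals or in late spring from anesthetised animals, to single foxes, so its part in any result was not tested. The arrays were Affymetrix Canine 2 arrays, which carry dog probe sets, so a fox transcript is read through the sequence of a related species.

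The ER is a continuous membrane network of flat sheets and thin tubules, and a small set of membrane proteins gives it that shape. REEP and reticulon (RTN) proteins sit in the outer leaflet with hairpin-like segments that bend the membrane into tubules, ARL6IP1 belongs to the same group of hairpin proteins, and atlastins (ATL) are GTPases that fuse tubules into three-way junctions. RTN3 and ATL3 also act as receptors that hand pieces of ER to autophagy, and RTN4, known as Nogo, is an inhibitor of axon growth in nerve tissue. Gingival epithelium and fibroblasts both depend on this network, since the secretory proteins and membrane proteins of the gum are made on it.

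The labelled tissue was checked on marker genes. KRT13, a keratin of mucosal epithelium, read 7090 to 11240 in affected foxes, against 6515 to 12980 in unaffected foxes, and COL1A1, a collagen chain made by fibroblasts, 4430.0 to 8942 and 2272 to 9646. Of the 6 muscle markers with a probe set, 5 (DES, MYH1, MYH2, TNNT3 and MYLPF) were too dim to be tested. The remaining marker, ACTA1, read 19.9 to 67.3 in affected foxes, against 2.12 to 76.0 in unaffected foxes. In a piece of tissue read as a whole, fewer cells of a type and less RNA per cell cannot be told apart.

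REEP5, the mammalian relative of yeast Yop1, is a tubule-bending protein, and its 4 probe sets did not behave alike. Values are MAS5 signals, linear intensities with a 2% trimmed mean of 150.0 on every array, and levels are compared between foxes for a probe set but never between probe sets. REEP5-B, which set off the choice of the genes, read 413, 487, 595, 491 and 626 in affected foxes 19, 55, 107, 381 and 757, against 1493, 1159 and 1399 in unaffected foxes 86, 97 and 402. The brightest affected fox, 757, lay well below the dimmest unaffected fox, 97. The mean was 522 ± 87.0 over the 5 affected foxes and 1350.5 ± 173 over the 3 unaffected foxes (SD). On the log2(signal + 16) scale, on which all differences below are given, this was a difference of -1.35 ± 0.19 (SE), or 0.392 times the unaffected level. Leaving out each fox in turn moved it between -1.46 (without unaffected fox 97) and -1.27 (without affected fox 19).

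The other REEP5 probe sets differed less between the groups. REEP5-C read 635, 549, 590.5, 596 and 495 in the same affected foxes, against 684, 647 and 645 in the unaffected foxes. The groups did not overlap here either, but affected fox 19 lay close to unaffected foxes 97 and 402, and the difference was -0.20 ± 0.15 (SE). The IDs of REEP5-B and REEP5-C end in a_at, which marks probes that match alternative transcripts of a single gene.

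REEP5-D read 1132, 1218, 1540.2, 1077 and 1479 in affected foxes, against 1585, 1345 and 1289 in unaffected foxes. Affected foxes 107 and 757 lay inside the unaffected range, and the difference was -0.13 ± 0.18 (SE). REEP5-A, whose suffix x_at marks probes that may bind other transcripts, read 101, 95.6, 48.0, 68.0 and 64.6 in affected foxes, against 108, 79.5 and 104 in unaffected foxes. Affected foxes 19 and 55 overlapped with the unaffected group, and the difference was -0.33 ± 0.23 (SE). All 4 REEP5 probe sets thus had lower means in affected foxes, by amounts from -0.13 to -1.35, and all 4 kept that sign in each fit without 1 fox. REEP5-D came closest to 0, at -0.044 without unaffected fox 86; it was at -0.0030 with the 5' to 3' actin ratio described below as a covariate, and at 0.048 within foxes of high 5' actin.

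**Figure D1:**
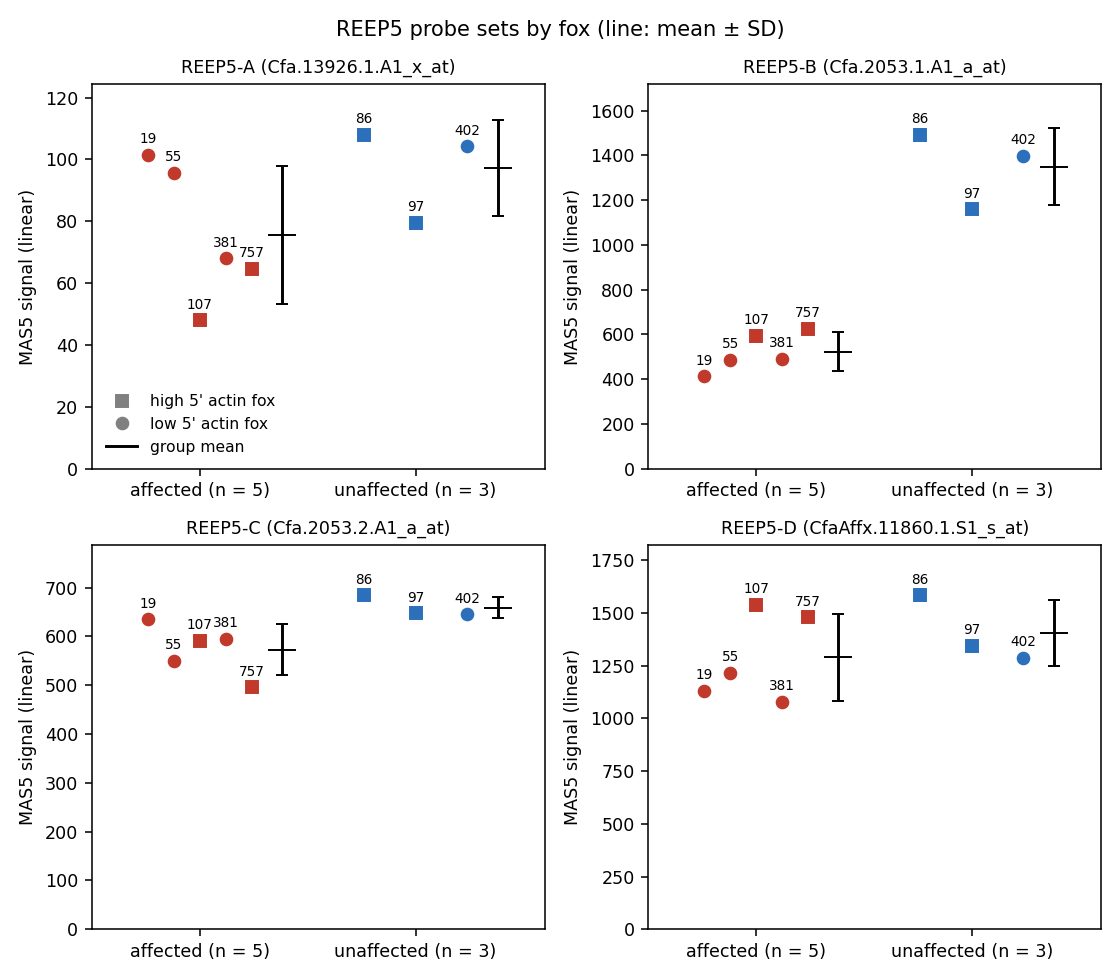
MAS5 signal (linear, y axis from 0) of the 4 REEP5 probe sets in 5 affected and 3 unaffected foxes (x axis), each point a fox with its number; squares are foxes of high and circles foxes of low 5' actin, and lines show the mean and SD. In REEP5-B affected foxes reach 626 at most and unaffected foxes start at 1159, while REEP5-D overlaps between the groups.

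Because every REEP5 probe set of an array is read from the same RNA, the ratio between probe sets was taken within each fox; its absolute size reflects the probes, and only its change between foxes is described. The log2 ratio of REEP5-B over REEP5-D was -1.42, -1.29, -1.35, -1.11 and -1.22 in affected foxes 19, 55, 107, 381 and 757, against -0.085, -0.21 and 0.12 in unaffected foxes 86, 97 and 402. The affected foxes were close together, at a mean of -1.28 ± 0.12 (SD), and stood apart from the unaffected foxes at -0.060 ± 0.17 (SD). Against REEP5-C the ratio averaged -0.14 ± 0.34 in affected and 1.01 ± 0.16 in unaffected foxes (SD). Against REEP5-A it averaged 2.58 ± 0.57 in affected and 3.59 ± 0.033 in unaffected foxes (SD). The 3 ratios differed between the groups by -1.22, -1.15 and -1.02. They share REEP5-B, the probe set that chose the genes, so they restate its difference against those of the other probe sets and are no further support for it.

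**Figure D2:**
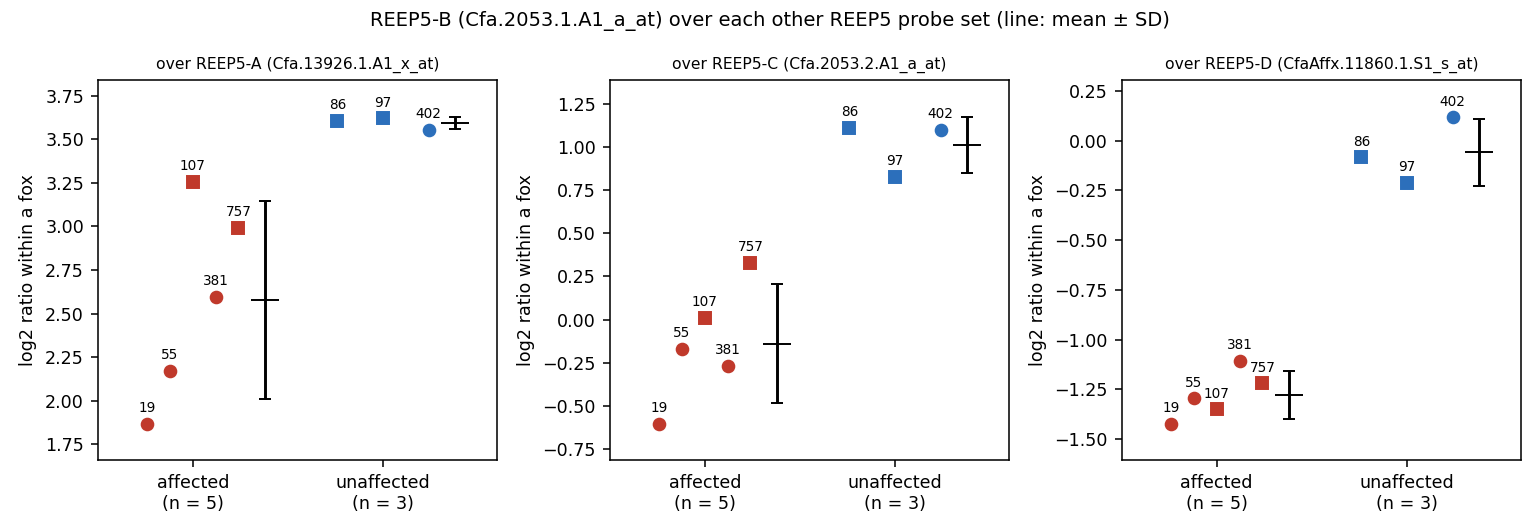
Log2 ratio within a fox of REEP5-B over each of the 3 other REEP5 probe sets (y axis, a separate scale in each panel) in affected and unaffected foxes (x axis), each point a fox and lines the mean and SD. Over REEP5-D the affected foxes lie between -1.42 and -1.11 and the unaffected foxes between -0.21 and 0.12.

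The distance between probe sets was measured as the mean absolute difference of log2 values, each centred on its own mean, over the 8 foxes; it depends on the size of the swings as well as on their order. From REEP5-B the distance to the other REEP5 probe sets was 0.55 to 0.57, which placed them at ranks 4410 to 6152 of the 25753 other probe sets. In the other direction, REEP5-B stood at ranks 22996, 24044 and 24255 from REEP5-A, REEP5-C and REEP5-D. The group difference of REEP5-B, which chose the genes, enters these distances and ranks, so they are no further support for it. Among themselves the other REEP5 probe sets lay 0.19 (REEP5-C and REEP5-D) to 0.33 (REEP5-A and REEP5-D) apart. RTN3-A and RTN3-C lay 0.069 apart, ARL6IP1-B and ARL6IP1-D lay 0.097 apart, the 3 ATL2 probe sets lay 0.17 to 0.23 apart and the RTN4 pair 0.25 apart. The other ARL6IP1 pairs lay 0.21 to 0.56 apart and the REEP3 pair 0.45 apart; from ARL6IP1-A the probe sets ARL6IP1-B and ARL6IP1-D stood at ranks 22163 and 22618.

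The genes closest to REEP5-B by this distance were ICA1 (0.22), ACSL5 (0.23), PBRM1 (0.27), FGFR1OP2 (0.28) and KCTD15 (0.30). ACSL5, which activates long-chain fatty acids at ER and mitochondrial membranes, read 97.7, 132, 166, 100.2 and 142 in affected foxes 19, 55, 107, 381 and 757, against 255, 269 and 229 in unaffected foxes 86, 97 and 402. FGFR1OP2 read 207 to 481 in affected foxes, against 371 to 723 in unaffected foxes and overlapped between them. PBRM1 also overlapped, narrowly, with affected fox 757 at 58.4 and unaffected fox 402 at 57.5. ICA1 was dim in affected foxes, at 15.1 to 25.6, against 37.55 to 77.0 in unaffected foxes. KCTD15 was dim as well, at 8.15 to 18.1 in affected foxes, against 20.1 to 39.4 in unaffected foxes. A probe set near a pattern that follows the groups also tends to follow the groups, and these likenesses over 8 foxes are a description only. REEP5-D was closest to SNRPF (0.045), CASP6 (0.046) and SEC13 (0.052), a coat protein of ER exit vesicles.

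REEP5 lies next to SRP19, a subunit of the signal recognition particle, and the ends of the pair overlap in the fox gene annotation used here (VulVul3), which is not the basis of the probes. The SRP19 probe sets differed by -0.11 ± 0.17 (SE) for SRP19-A and -0.18 ± 0.18 (SE) for SRP19-B. The second of these read 915, 1178, 1220.0, 1066 and 897 in affected foxes, against 1254, 1288 and 1043 in unaffected foxes, with overlap between the groups. The gene on the other side had no probe set named for it.

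REEP3, which keeps ER away from chromosomes in mitosis, was read by 2 probe sets. REEP3-A read 134, 54.2, 119.7, 55.3 and 201 in affected foxes 19, 55, 107, 381 and 757, against 152, 107 and 119.9 in unaffected foxes 86, 97 and 402. Affected foxes ran from below to above the unaffected foxes, and the difference was -0.27 ± 0.37 (SE). REEP3-B read 80.7 to 176 in affected foxes, against 100.2 to 143 in unaffected foxes, a difference of -0.0024 ± 0.25 (SE). Affected fox 55 was lowest in the first probe set and highest in the second.

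The reticulon probe sets differed by -0.34 to 0.27 between the groups. RTN3-B read 1436, 1839, 1586, 1409 and 1403 in affected foxes 19, 55, 107, 381 and 757, against 1131, 1271 and 1387 in unaffected foxes 86, 97 and 402. Every affected fox was above every unaffected fox, by a narrow margin between affected fox 757 and unaffected fox 402, and the difference was 0.27 ± 0.17 (SE). The other RTN3 probe sets, RTN3-A and RTN3-C, overlapped between the groups and differed by 0.049 ± 0.16 and 0.10 ± 0.17 (SE). RTN4-A read 5053 to 7055 in affected foxes, against 4598 to 6906 in unaffected foxes, a difference of 0.033 ± 0.19 (SE). RTN4-B read 1425, 1033, 2411, 1523 and 2101 in affected foxes, against 2579.8, 2261 and 1501 in unaffected foxes, a difference of -0.34 ± 0.29 (SE), and the groups overlapped.

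Among the atlastins, ATL2 varied widely from fox to fox and its 3 probe sets varied together. ATL2-A read 1998, 1159, 1389, 1662 and 1206 in affected foxes 19, 55, 107, 381 and 757, against 804, 2040.4 and 2191 in unaffected foxes 86, 97 and 402. ATL2-C read 265, 94.0, 132, 122 and 110.5 in affected foxes, against 109.6, 232 and 242 in unaffected foxes. In both, foxes 19, 97 and 402 were high and fox 86 was low, so the spread ran across the groups and not between them. The differences of the 3 probe sets were -0.078 ± 0.33, -0.31 ± 0.29 and -0.40 ± 0.34 (SE). Without unaffected fox 86 they were -0.54, -0.66 and -0.74. ATL3 had 1 probe set, at 441 to 641 in affected foxes, against 511 to 624 in unaffected foxes, a difference of -0.039 ± 0.18 (SE).

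ARL6IP1, the other hairpin protein of the set, had means that were higher in the affected group for 2 probe sets (0.15 ± 0.24 for ARL6IP1-A and 0.075 ± 0.16 for ARL6IP1-C, SE) and lower for 2 (-0.14 ± 0.27 for ARL6IP1-B and -0.10 ± 0.30 for ARL6IP1-D, SE). All 4 overlapped between the groups. ARL6IP1-B read 706, 648, 1011, 653 and 1347 in affected foxes 19, 55, 107, 381 and 757, against 1085, 957 and 760.0 in unaffected foxes 86, 97 and 402.

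Over the 19 probe sets, 13 were lower and 6 higher in the affected group on average, at a median difference of -0.10; over all 25754 probe sets 56.5% were lower and the median was -0.037. Of the 13 lower probe sets 4 were of REEP5, and with 1 probe set per gene, that of the highest mean log2 value, 4 genes were lower and 3 higher, at a median of -0.0024, REEP5 (as REEP5-D) being at -0.13. Every affected fox was below every unaffected fox in 2 of the 19, both of REEP5, where 1.52% of all probe sets had that order, and above in 1 of the 19, of RTN3, where 0.909% did. In limma with Benjamini-Hochberg adjustment 0 of the 19 passed 0.05 in either direction, where 0% of all probe sets did; at an unadjusted p under 0.05 there were 298 higher and 395 lower among all. Since this contrast chose the genes, nothing is read from these counts.

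**Figure D3:**
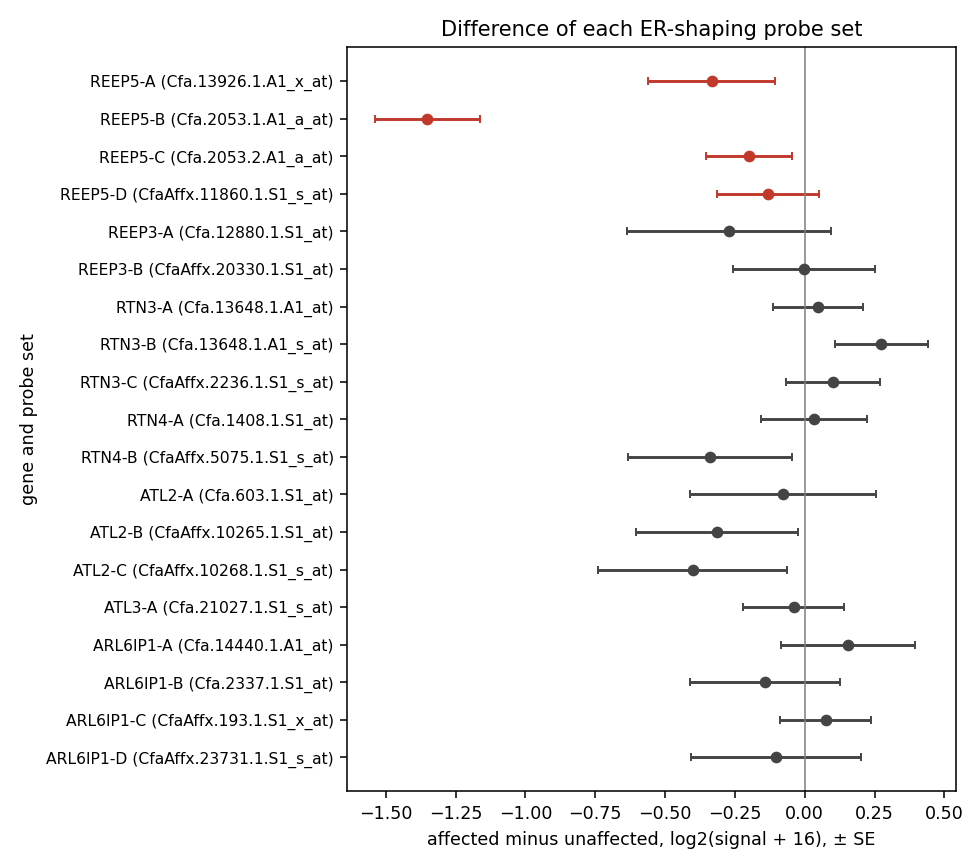
Difference between affected and unaffected foxes in log2(signal + 16) with its SE (x axis) for the 19 probe sets (y axis), REEP5 in red. REEP5-B lies at -1.35, and the other 18 lie between -0.40 and 0.27.

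**Figure D4:**
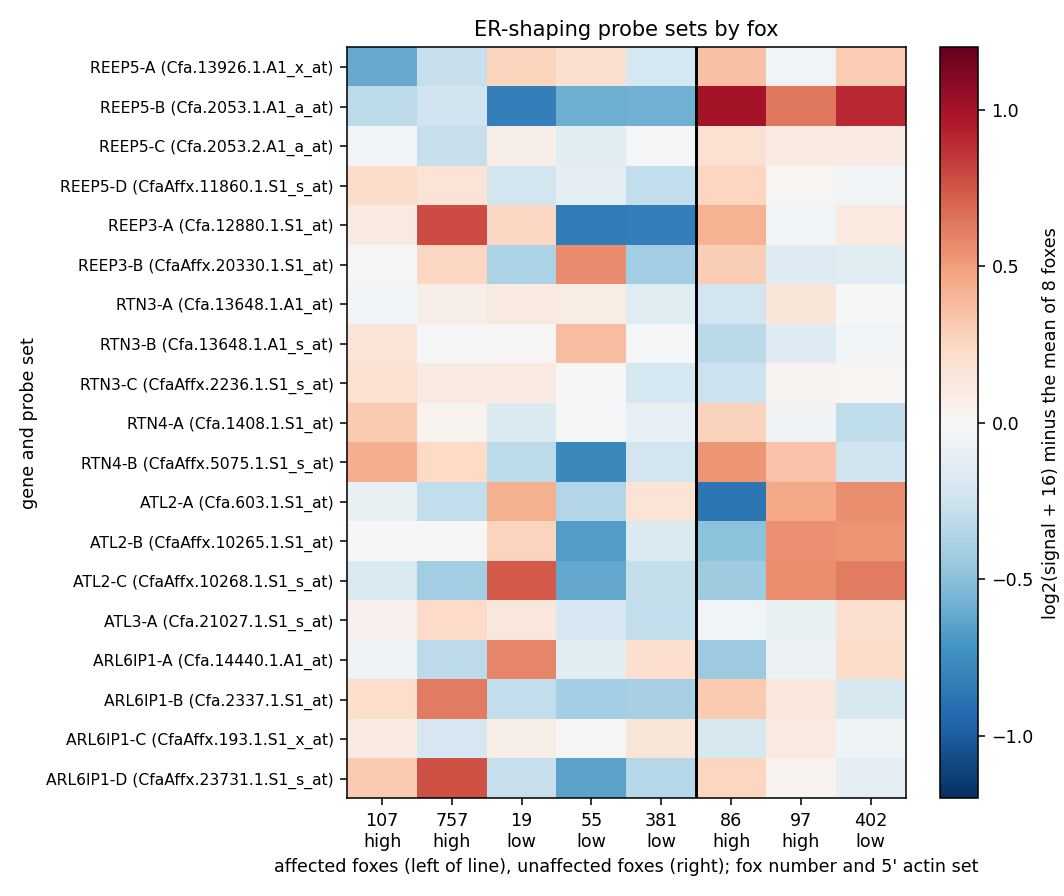
Log2(signal + 16) of the 19 probe sets (rows) in each fox (columns), minus the mean of the 8 foxes, with affected foxes left of the line and the 5' actin set under each fox number. REEP5-B follows the disease groups, while RTN4-B and ARL6IP1-B follow the 5' actin sets and ATL2 follows neither.

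The choice of genes did not use sex, so males and females were compared with a term for group. In limma 0 of the 19 probe sets passed (adjusted p = 0.9999 for each), where 0.00388% of all probe sets were higher in males, a single probe set of EIF2S3, and 0% lower. Male minus female differences ran from -0.23 ± 0.35 (SE) for ATL2-A to 0.20 ± 0.19 (SE) for RTN4-A, and at an unadjusted p under 0.05 there were 0 of 19, against 1.58% of all probe sets higher and 0.711% lower. For REEP5-B the difference was -0.14 ± 0.20 (SE), and its disease difference was -1.39 within males and -1.31 within females. The difference of the disease effect between males and females, an interaction term that rests on 1 unaffected female, passed in 0 of the 19 and in 0% of all probe sets. It was -0.91 ± 0.61 (SE) for RTN4-B and 0.87 ± 0.74 (SE) for ATL2-C, at an adjusted p of 0.99995 for each. At an unadjusted p under 0.05 there were 0 of 19, against 0.718% higher and 1.76% lower.

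The choice did not use the array controls for beta-actin either. RNA for these arrays is labelled from its 3' end, so the signal of probes near the 5' end relative to the 3' end depends on how far labelling reaches along the RNA. The part of RNA quality in this ratio was not tested. On the log2 scale the 5' over 3' actin signal was -0.77 to -0.58 in affected foxes 107 and 757 and unaffected foxes 86 and 97, and -2.84 to -1.83 in affected foxes 19, 55 and 381 and unaffected fox 402. The foxes thus fall into 2 sets that both hold affected and unaffected animals, and a slope on the ratio is mostly the contrast of these sets.

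RTN4-B read 2411, 2101, 2579.8 and 2261 in high 5' actin foxes 107, 757, 86 and 97, against 1425, 1033, 1523 and 1501 in low 5' actin foxes 19, 55, 381 and 402. The sets did not overlap, at 1.71 times the low level. ARL6IP1-B read 957 to 1347 in the high set, against 648 to 760.0 in the low set, and ARL6IP1-D 438 to 735 against 266 to 393, at 1.57 and 1.61 times the low level. REEP5-D also separated the sets, at 1345 to 1585 against 1077 to 1289. These 4 of 19 probe sets were wholly higher in the high set, where 5.27% of all probe sets were; 0 of 19 were wholly lower, where 4.53% were.

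With group as a term, the slope per unit of the log2 actin ratio was 0.47 ± 0.10 (SE) for RTN4-B, 0.49 ± 0.10 for ARL6IP1-D, 0.42 ± 0.095 for ARL6IP1-B and 0.47 ± 0.17 for REEP3-A. In limma their adjusted p-values were 0.155, 0.151, 0.174 and 0.313, so 0 of the 19 passed; 0.00388% of all probe sets passed with a positive and 0% with a negative slope. At an unadjusted p under 0.05 these 4 of 19 had positive slopes, where 7.7% of all probe sets did, and 0 of 19 negative slopes, where 5.53% did. The other ARL6IP1 probe sets had slopes of -0.21 ± 0.13 and -0.050 ± 0.097 (SE), and RTN4-A had 0.17 ± 0.10 (SE), so the steeper slopes were not shared by every probe set of these genes. REEP5-B had a slope of 0.15 ± 0.11 (SE; adjusted p = 0.571). The other REEP5 probe sets differed in sign, at -0.25 ± 0.12 for REEP5-A, -0.042 ± 0.092 for REEP5-C and 0.19 ± 0.093 for REEP5-D (SE). Their adjusted p-values in limma were 0.391, 0.870 and 0.425.

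**Figure D5:**
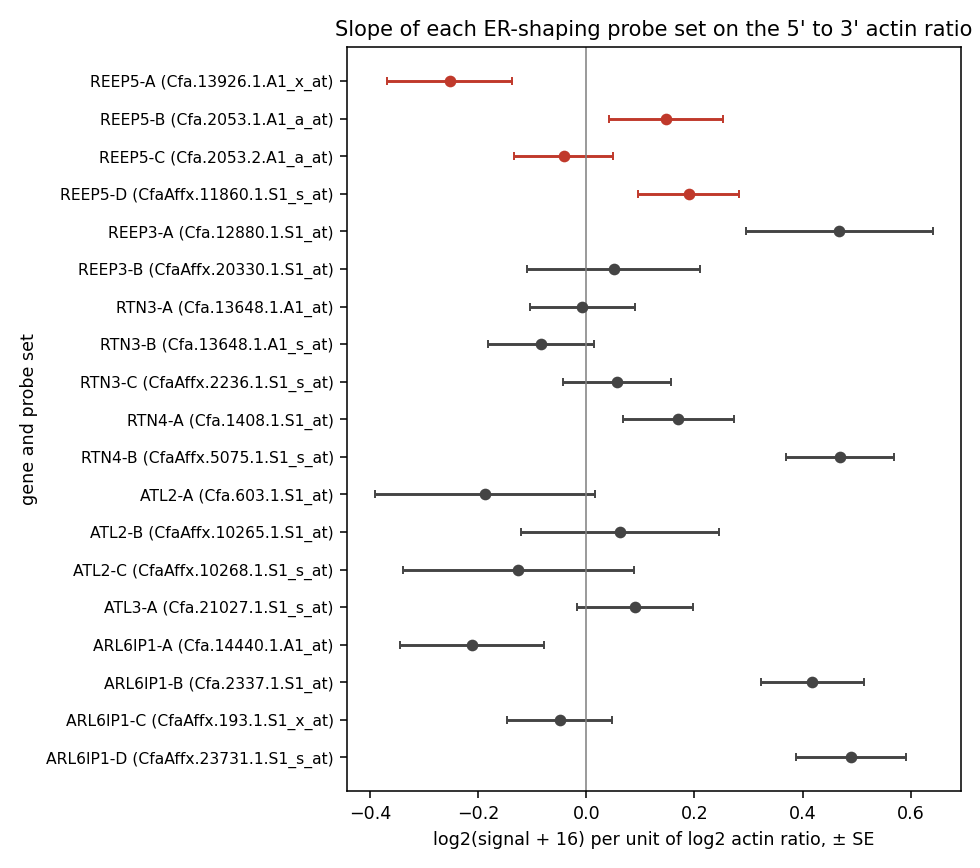
Slope of log2(signal + 16) per unit of the log2 5'/3' actin ratio, with its SE (x axis), for the 19 probe sets (y axis), REEP5 in red, from the fit with a term for group. RTN4-B and ARL6IP1-B and ARL6IP1-D lie at 0.42 to 0.49 with SEs near 0.10, and ATL2 spans both signs.

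Fibroblast markers had positive slopes in 7 of 7, with a median of 0.55, and 0 of the 7 passed. Over all genes 5355 of 10498 had positive slopes. The summed fibroblast signal was 14290 to 30550 in the high set and 8131 to 19680 in the low set, so the sets overlapped. Leukocyte markers had positive slopes in 5 of 6, and their summed signal was 1014 to 3618 against 752 to 2130. Endothelial markers had positive slopes in 3 of 4, with a median of 0.22. Epithelial markers were split, with positive slopes in 2 of 5 and a median of -0.017. CDH1 was at 0.80 and TP63 at 0.75, against -0.017 for KRT13, -0.090 for DSG3 and -0.32 for DSP. The part of tissue makeup in the slopes of RTN4, ARL6IP1 and REEP3 was not tested. Between the disease groups the summed marker signal overlapped for fibroblasts (10120 to 27320 in affected foxes, against 8131 to 30550 in unaffected foxes), epithelium (12760 to 18390 and 9053 to 21320) and leukocytes (752 to 2599 and 1014 to 3618). Such a sum of linear signals mostly follows its brightest probe sets. Its overlap therefore says little about dimmer markers, and does not show that tissue makeup was alike. By means of log2(signal + 16), fibroblast markers were higher in 5 of 7 and leukocyte markers in 5 of 6. Over all genes 4755 of 10498 were higher. The largest leukocyte difference was in CD68, a macrophage lysosomal protein, at 1.06 ± 0.35 (SE). CD68 read 297 to 390 in affected foxes, against 67.6 to 284 in unaffected foxes. Every affected fox was thus above every unaffected fox, as in 0.909% of all probe sets. The other leukocyte markers differed by -0.095 ± 0.58 (LAPTM5) to 0.23 ± 0.55 (CD3E, SE). On the same scale 4 of 5 epithelial markers had lower means in affected foxes, where 54.7% of all genes were lower. TP63 led at -0.92 ± 0.55 (SE) and read 2.64 to 90.4 in affected foxes, against 62.3 to 181 in unaffected foxes. Its lowest reading lay below the bacterial-control background of every array, which was 7.42 at the lowest. The other epithelial markers differed by -0.24 ± 0.36 (DSG3) to 0.29 ± 0.51 (DSP, SE). CD68 and TP63 are named here after their values were seen.

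The disease differences of the same genes were read within each actin set. REEP5-B differed by -1.09 in the high set (2 affected and 2 unaffected foxes) and by -1.57 in the low set (3 affected foxes and 1 unaffected fox), and by -1.25 with the ratio as a covariate. With that covariate REEP5-A went from -0.33 to -0.51, REEP5-C from -0.20 to -0.23 and REEP5-D from -0.13 to -0.0030. RTN4-B went to -0.018 with that covariate, and REEP3-A, ARL6IP1-B and ARL6IP1-D changed sign, at 0.051, 0.14 and 0.23. Over the 19 probe sets the median with that covariate was 0.023 with 8 lower, against -0.10 with 13 lower without it; it was 0.048 with 6 lower in the high set and -0.18 with 14 lower in the low set.

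Other genes of the ER were counted from lists with 1 probe set per gene. Of 15 further tubule genes 11 were tested, with 5 higher and 6 lower in the affected group, a median difference of -0.0074 and 0 past the threshold; over 10498 genes 54.7% were lower and the median was -0.026. REEP4, a mitotic relative of REEP3, differed by 0.33 ± 0.20 (SE), PRAF2 by 0.26 ± 0.40 and RAB10, a GTPase of ER tubule growth, by 0.14 ± 0.19, while LNPK, which stabilises tubule junctions, differed by -0.20 ± 0.25, ATL1, the neuronal atlastin, by -0.11 ± 0.38 and TMEM33 by -0.016 ± 0.18. Of 14 ER sheet proteins 9 were higher and 5 lower (median 0.013), from SSR1, a translocon subunit, at -0.37 ± 0.21 (SE) to SEC61A1, the channel itself, at 0.32 ± 0.20 (SE). Of 8 ER-phagy receptors 6 were higher and 2 lower (median 0.11), with TEX264 at 0.21 ± 0.22 (SE) and CCPG1 at -0.086 ± 0.25 (SE).

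Of 12 contact-site and lipid genes 6 were higher and 6 lower (median -0.019), with LPIN2, a phosphatidate phosphatase, at 0.39 ± 0.27 (SE), VAPA, a tether of the ER to other membranes, at 0.33 ± 0.20 (SE) and MOSPD2 at -0.30 ± 0.25 (SE). Of 11 ER stress genes 8 were higher and 3 lower (median 0.050), with SDF2L1 at 0.35 ± 0.38 (SE), the chaperone HSPA5 at 0.23 ± 0.19 (SE) and the stress kinase EIF2AK3 at -0.16 ± 0.16 (SE). In limma 0 genes of these lists passed the threshold for disease, sex or the actin slope.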

How the data were processed

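Values are linear intensities deposited by the authors, 1 for each probe set of an array, made with MAS5 per the submitters' processing notes. Its version and settings are not given here by any source. The table had 43035 probe sets, 111 of them controls; of the rest 29254 had 1 symbol in the platform annotation, 439 several and 13231 none.

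Signals were taken as log2(signal + 16) without further normalization, which understates folds of dim probe sets. Probe sets in the dimmest 40% by mean log2 value were left out. Contrasts were fitted in limma 3.58.1 (R 4.3.3; lmFit, eBayes, Benjamini-Hochberg over all 25754 probe sets, threshold 0.05): affected minus unaffected, male minus female with group, their interaction, and the slope on the log2 5'/3' signal of the actin controls with group. The high 5' actin set read above 5000 in the 5' control. The fits were also run on simulated arrays, and no result here rests on that run. Precision is limited by 8 arrays, and p-values measure the spread between foxes. The median SE of a disease difference was 0.23.

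The genes and lists were chosen with earlier results of these data known. All their probe sets are named, with the largest differences of each other list and the genes nearest to REEP5. Alternatives covered the offset, quantile normalization, the filter, the eBayes prior, array weights, covariates and each fox left out; the other actin series was added after seeing the data.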

Additional observations from a re-analysis of the deposited data

Results flagged for a closer look

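ATL2-C was picked out because affected fox 19, at 265, lay far above the other affected foxes at 94.0 to 132. On linear signals, its gap to the next fox was 0.775 of the range of the 5 affected foxes. Chance picks out about 1 in 20 groups of normally distributed values, and 19 probe sets were looked at. Only the affected foxes were screened, and log2 values were not.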

How the results depend on the processing

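The number of probe sets past the threshold in limma, of all tested, stayed at 0 for disease and at 1 for sex under each alternative that keeps all foxes; without 1 fox it was 0 for disease and 1 to 2 for sex. For the interaction it was 0 throughout and could not be fitted without unaffected fox 402, the only unaffected female. For the actin slope it was 1, and 0 at an offset of 1 and without a filter, 27 at an offset of 64, 32 with a 60% filter, 32 with a trended robust prior, 119 with array weights and 14 with the other actin series; it was 0 to 4 without 1 fox. For that slope 0 of the 19 probe sets passed in each of these (smallest adjusted p = 0.0671, with array weights). Their median disease difference of -0.10 was 0.023 with the actin ratio as a covariate and 0.048 within foxes of high 5' actin, -0.027 with array weights, -0.18 within foxes of low 5' actin, -0.039 with 1 probe set per gene by the highest mean linear signal, and -0.19 to -0.051 without 1 fox; the cause was not tested. Of the 19 disease differences 9 kept their sign under every alternative over all or all but 1 of the foxes.

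Slopes near 0 changed sign. For RTN3-A, at -0.0073, the slope was 0.0074 with quantile normalization, 0.015 with array weights and -0.035 to 0.015 without 1 fox. Without 1 fox the slope was -0.036 to 0.29 for REEP3-B, -0.080 to 0.026 for REEP5-C, -0.094 to 0.027 for ARL6IP1-C and -0.12 to 0.17 for ATL2-B, which was at -0.030 with the other actin series. No paired analysis was possible because fox numbers are not shared between groups.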
